A study of Mus musculus with 8 samples.

Results

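Complement genes were measured in mouse peritoneal macrophages that had been exposed to LPS, to the compound C498, or to both. The 8 genes described here encode the 3 chains of the C1q recognition molecule (C1qa, C1qb and C1qc), the central component C3, factor B (Cfb), properdin (Cfp) and the anaphylatoxin receptors C3ar1 and C5ar1. They were taken by gene symbol from a table of 55801 genes, in which each of the 8 symbols occurred, and all 8 were among the 12189 genes with a mean of at least 1 TPM (a length-normalized share of the transcripts in a sample) that entered the tests. The cells were flushed from the peritoneal cavity of mice 72 h after an injection of thioglycollate, an irritant that recruits macrophages. The study's methods give its animals as male C57BL/6 mice aged 6 to 8 weeks. NC cells received the vehicle DMSO, LPS cells the vehicle for 0.5 h and then 100 ng/ml LPS for 4 h, C498 cells 15 µM C498 without LPS, and C498+LPS cells 15 µM C498 for 0.5 h and then 100 ng/ml LPS for 4 h. Each group had 2 samples. Whether these came from separate mice or cultures is not stated, so the p-values below measure only the spread between these samples, which may be technical. C498 is named here only by its code; the study screened it as an inhibitor of JAK/STAT and NFκB signaling, and the comparisons ask how LPS and C498 each moved these genes and whether the LPS response was the same with C498 present.

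Complement is a cascade of plasma and tissue proteins that tags microbes and dying cells for uptake and recruits leukocytes. C1q starts the classical pathway when it binds antibody or apoptotic surfaces. Its A, B and C chains are assembled together, and macrophages are a main source of it. C3 is the point where all pathways meet, factor B supplies the protease of the alternative pathway convertase, and properdin stabilizes that convertase. The cleavage fragments C3a and C5a act on G protein-coupled receptors encoded by C3ar1 and C5ar1, of which C5ar1 drives chemotaxis and activation of phagocytes. Most circulating complement is made in the liver, while macrophages make several components locally.

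RefSeq promoter sequences (build GRCm38.p6) were available for 6 of the 8 genes and not for C1qa or Cfb. The 250 bases before the annotated start are shown for C1qb and C1qc, whose levels moved together, and for C5ar1, which changed the most. They are also shown for C3, which passed no test in the fit of all samples without centring on the median gene. Each runs 5′ to 3′ on the minus strand, in the direction of transcription. Capitals mark letters that matched 1 of 5 motifs searched on both strands.
C1qb, chr4:136886201-136886450: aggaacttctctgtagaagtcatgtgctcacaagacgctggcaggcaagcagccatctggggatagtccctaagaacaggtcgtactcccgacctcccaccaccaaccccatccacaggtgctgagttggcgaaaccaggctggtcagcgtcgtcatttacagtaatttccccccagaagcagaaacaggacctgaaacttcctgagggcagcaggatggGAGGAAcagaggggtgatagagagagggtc
C1qc, chr4:136892915-136893164: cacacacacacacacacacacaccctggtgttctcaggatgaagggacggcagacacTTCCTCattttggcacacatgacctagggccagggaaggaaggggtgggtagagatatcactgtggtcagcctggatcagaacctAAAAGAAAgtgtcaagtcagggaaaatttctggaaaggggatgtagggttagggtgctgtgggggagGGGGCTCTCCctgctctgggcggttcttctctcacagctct
C5ar1, chr7:16259339-16259588: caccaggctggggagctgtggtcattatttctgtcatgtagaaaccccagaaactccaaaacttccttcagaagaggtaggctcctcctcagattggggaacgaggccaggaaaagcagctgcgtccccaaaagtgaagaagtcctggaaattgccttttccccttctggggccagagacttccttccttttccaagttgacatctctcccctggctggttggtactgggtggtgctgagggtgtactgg
C3, chr17:57228137-57228386: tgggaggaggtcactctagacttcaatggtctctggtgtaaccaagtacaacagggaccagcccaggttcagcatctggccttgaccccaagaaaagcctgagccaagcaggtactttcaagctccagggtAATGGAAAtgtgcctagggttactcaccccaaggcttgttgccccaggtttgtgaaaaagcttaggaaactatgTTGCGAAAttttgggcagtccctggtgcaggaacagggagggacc
In C1qb the match was to the PU.1 core GAGGAA, from 30 bases before the start. In C1qc the matches were to the same core on the other strand at 193, to the interferon regulatory factor (IRF) motif AANNGAAA at 108 and to the NF-kB consensus at 41 bases before the start. In C3 they were to the IRF motif at 119 and to the C/EBP motif TTGCNNAA at 45 bases before the start. No letters of C5ar1 matched, and none of the promoters held the STAT site TTCNNNGAA. No matches overlapped. Among all 32851 RefSeq promoters, counted over 250 bases before to 50 bases after the start, 28.3% held the PU.1 core, 23.9% the IRF motif, 10.8% the C/EBP motif, 8.3% the STAT site and 4.51% the NF-kB consensus. C1qa, C1qb and C1qc lie side by side on chromosome 4, and Cfb lies next to C2 on chromosome 17. The other genes are on chromosome 17 (C3), X (Cfp), 6 (C3ar1) and 7 (C5ar1).

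In the whole series, Pearson r of log2(TPM + 1) was 0.962 to 0.981 between the samples of a group and 0.891 to 0.952 between samples of different groups, and 17528 to 18975 genes were above 0 in a sample. TPM values keep no record of read depth, so the counting error behind a value is unknown. All 10 macrophage markers examined were above a mean of 1 TPM, led by Lyz2 and Cd68. Their summed level was 20789 to 21213 TPM in NC, 18544 to 19061 in LPS, 16429 to 16578 in C498 and 12859 to 14663 in C498+LPS. The summed level of 8 fibroblast markers moved the other way with C498, from 156 to 198 TPM in NC and 182 to 207 in LPS to 655 to 779 in C498 and 642 to 945 in C498+LPS.

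Most of these genes were lower with C498 whether or not LPS was present. At an adjusted p of at most 0.05 (limma, Benjamini-Hochberg over all tested genes), 7 of the 8 fell in C498 vs NC and none rose, where 6.19% of all tested genes fell and 9.29% rose. The same count, 7 of 8 with none higher, was found in C498+LPS vs LPS, against 7.7% of all tested genes lower and 9.08% higher. C3 was the exception in both. These comparisons contrast different samples but share 1 estimate of the spread over all 8, so their calls are not independent. The counts depended on the settings. When every sample was centred on its median gene, 4 of 8 fell without LPS and 5 of 8 with LPS, where 9.94% and 10.7% of all genes fell. Without a filter on low values the counts were 3 and 4, where 2.01% and 2.89% of all genes fell, and without a variance trend 3 and 4, where 5.06% and 6.34% fell. When only the groups compared were fitted, 1 of 8 passed in C498 vs NC, where 1.08% of all genes fell, and 7 of 8 with LPS, where 6.6% fell. Samples were also left out in turn. In C498 vs NC 1 of 8 (C5ar1) fell without C498 replicate 1 or 2, where 0.845% and 1.03% of all genes fell. Leaving out 1 of the other samples gave 3 to 5, where 3.48% to 7.31% of all genes fell. In C498+LPS vs LPS 3 of 8 (Cfb, Cfp and C5ar1) fell without LPS replicate 1 or 2 or C498+LPS replicate 2, where 2.07% to 2.34% of all genes fell. The count was 4 without C498+LPS replicate 1 or a C498 sample, where 4.83% to 4.98% fell, and 7 without an NC sample, where 10.9% fell. In each of these fits 7 of the 8 values were below 0 in C498 vs NC and 8 of 8 in C498+LPS vs LPS.

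LPS moved the genes in both directions. In LPS vs NC 2 rose (Cfb and C5ar1) and 3 fell (C1qa, C1qc and C3ar1), where 9.84% of all tested genes rose and 19.8% fell. With every sample centred on its median gene 3 rose (Cfb, C5ar1 and C3) and 1 fell (C3ar1), where 14.6% of all genes rose and 12% fell. In C498+LPS vs C498 only C5ar1 rose and 4 fell (C1qa, C1qc, Cfp and C3ar1), where 4.51% of all tested genes rose and 11.7% fell. With centring 1 rose (C5ar1) and 1 fell (C3ar1), where 7.94% rose and 5.32% fell. With samples left out, 1 rose and 1 fell in LPS vs NC without LPS replicate 1, where 5.44% of all genes rose and 8.98% fell. Without LPS replicate 2 there were 2 that rose and none that fell, where 6.35% rose and 8.75% fell. Without NC replicate 1 there were 3 that rose and 5 that fell, where 14.4% rose and 16.7% fell. In C498+LPS vs C498 none passed without C498 replicate 1, where 1.77% of all genes rose and 2.08% fell. C5ar1 alone passed without C498 replicate 2 or a C498+LPS sample, where 1.72% to 2.54% rose and 2.09% to 4.3% fell. C3ar1 and C5ar1 passed without an LPS sample, where 3.13% to 3.14% rose and 6.62% to 6.68% fell.

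**Figure D1:**
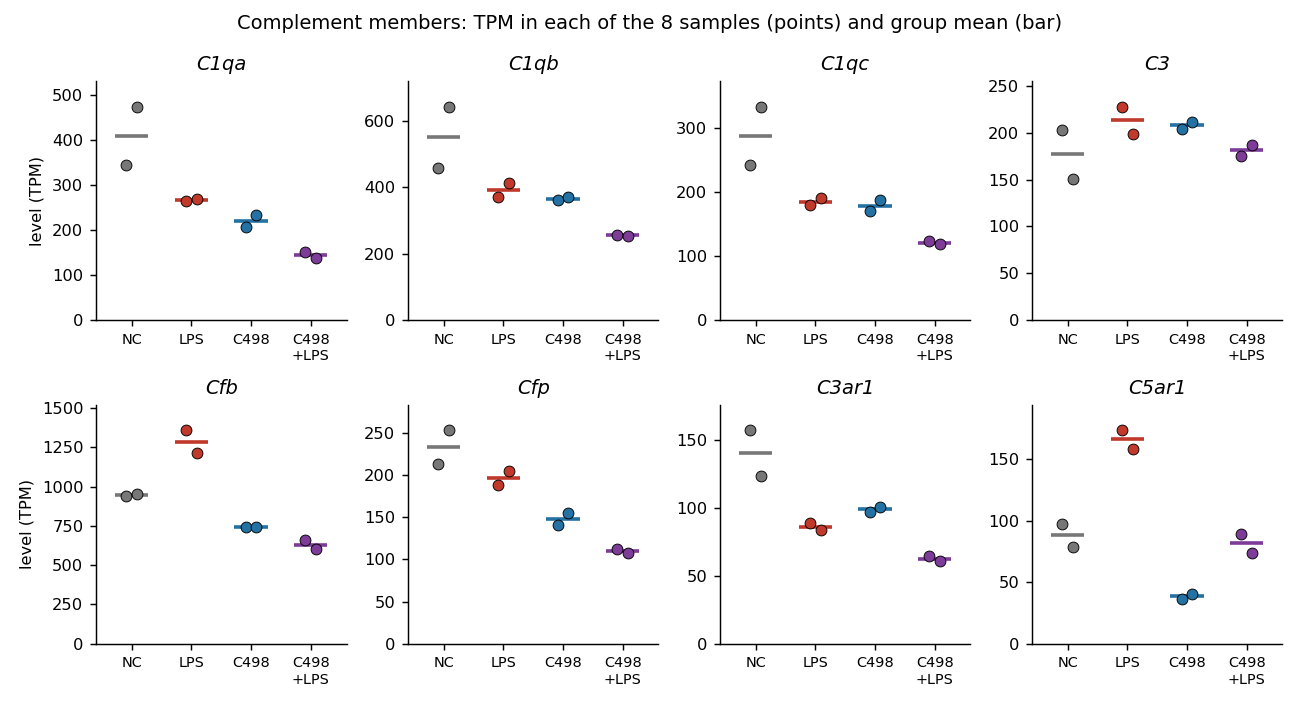
Level of each of the 8 complement genes in TPM (y axis, linear, from 0) in the 2 samples of each group (points) with the group mean (bar). The C498+LPS samples are the lowest for C1qa, C1qb, C1qc, Cfb, Cfp and C3ar1, while C5ar1 is highest in LPS at 159 and 174 TPM and lowest in C498 at 36.5 and 40.4 TPM.

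Most of these changes were under 2-fold. By the study's criterion for a differentially expressed gene (DEG), a change of at least 2-fold with an adjusted p of at most 0.05, LPS vs NC held 0 of the 8 genes against 12.2% of all tested genes, with 6 of the 8 at an unadjusted p under 0.05 against 41.2% of all tested genes. C498 vs NC held 1 (C5ar1) against 7.0%, C498+LPS vs LPS held 2 (Cfb and C5ar1) against 7.57%, and C498+LPS vs C498 held 1 (C5ar1) against 5.64%. The median log2 change of the 8 genes with LPS was -0.36 in cells without C498 and -0.47 in cells with it, where the median of all tested genes was -0.169 and -0.176. With C498 it was -0.61 without LPS and -0.72 with LPS, where the median of all tested genes was 0.0145 and 0.00653. In both LPS comparisons the whole distribution thus sat slightly below 0 on the TPM scale, and the LPS changes are set beside values with every sample centred on its median gene. RNA from a cell mixture does not show whether a lower level came from fewer cells of a type or from less RNA per cell.

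**Figure D2:**
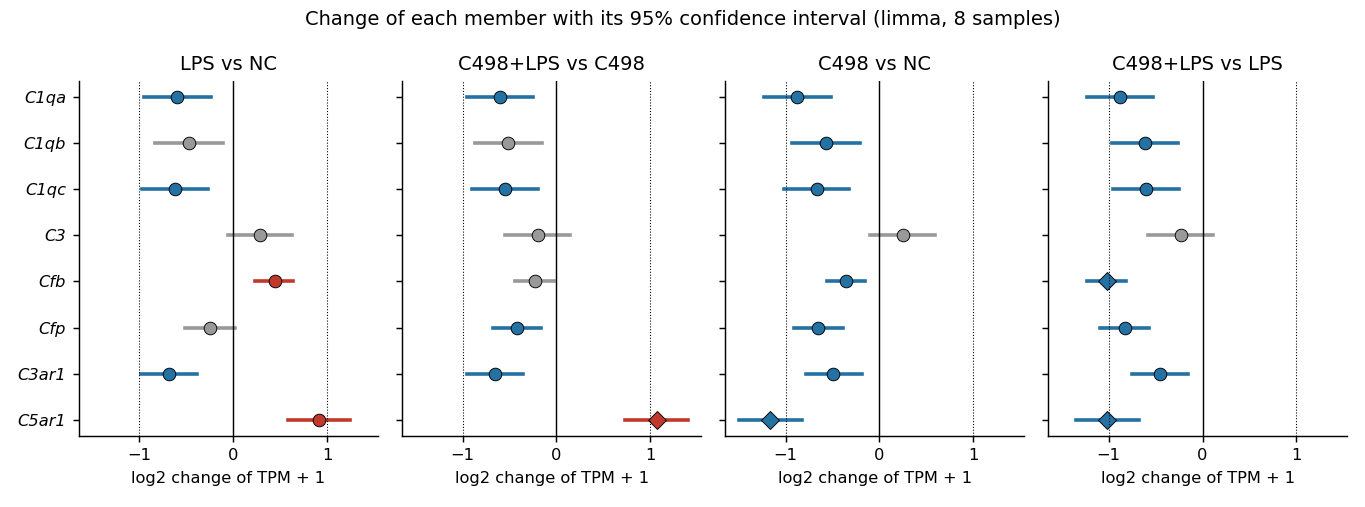
Log2 change of TPM + 1 for each gene (x axis) in 4 comparisons, with 95% confidence intervals from limma over 8 samples. Red points rose and blue points fell at an adjusted p of at most 0.05, grey points did not pass, and diamonds also changed at least 2-fold (dotted lines at -1 and 1), as Cfb did at -1.02 in C498+LPS vs LPS.

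The C1q chains, which form the recognition molecule of the classical pathway, had lower mean levels with LPS and with C498, and the lowest with both. With LPS the fall of C1qb did not pass, and under centring none of the LPS falls passed. C1qa (ENSMUSG00000036887) was at 346 and 475 TPM in NC, 266 and 269 in LPS, 208 and 234 in C498 and 151 and 139 in C498+LPS. No 2 groups overlapped. C1qb (ENSMUSG00000036905) was at 458 and 642 TPM in NC, 371 and 413 in LPS, 359.9 and 369 in C498 and 257 and 254 in C498+LPS. C1qc (ENSMUSG00000036896) was at 242 and 333 TPM in NC, 179 and 190.0 in LPS, 169.5 and 187 in C498 and 123 and 119 in C498+LPS. For both of these the NC samples lay above all others and the C498+LPS samples below all others. The LPS and C498 samples overlapped for C1qc and nearly touched for C1qb (371 and 369 TPM), and this pair of groups was not tested.

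C498 lowered all 3 chains in unstimulated cells. The log2 change in C498 vs NC was -0.88 ± 0.15 (SE, adjusted p = 0.0111) for C1qa, -0.57 ± 0.152 (adjusted p = 0.0458) for C1qb and -0.67 ± 0.149 (adjusted p = 0.0262) for C1qc, with 2 samples in each group. In LPS-stimulated cells the falls were of like size, at -0.88 (adjusted p = 0.00925), -0.61 (adjusted p = 0.0338) and -0.60 (adjusted p = 0.033). The group means of C1qa were thereby 46.2% lower without LPS and 45.8% lower with it. C1qa fell with C498 under centring as well, with adjusted p of 0.0282 without LPS and 0.0302 with LPS, at larger changes of -1.0 and -0.96. The changes of C1qb (-0.69 and -0.69) and C1qc (-0.79 and -0.68) were larger under centring too, but did not pass, with adjusted p of 0.0549 to 0.094. The calls of C1qb and C1qc also rested on the full set of samples. With 1 sample left out, C1qb passed in 1 of 8 fits in C498 vs NC and 2 of 8 in C498+LPS vs LPS, C1qc in 2 of 8 in each, and C1qa in 6 of 8 and 5 of 8. Without NC replicate 2 the changes in C498 vs NC were -0.33 for C1qb, -0.44 for C1qc and -0.65 for C1qa. Adjusted p reached 0.211 for C1qb without C498 replicate 1 (C498 vs NC) and 0.191 without LPS replicate 2 (C498+LPS vs LPS).

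LPS lowered C1qa by 0.60 on the log2 scale (adjusted p = 0.0228) and C1qc by 0.62 (adjusted p = 0.0194), while C1qb at -0.47 did not pass (adjusted p = 0.0551). Relative to the median gene these LPS changes were smaller, at -0.43, -0.45 and -0.30 (adjusted p = 0.222, 0.204 and 0.409), and none passed. The spread between the 2 NC samples was wide for all 3 chains. Without NC replicate 1 the change of C1qa was -0.83 and without NC replicate 2 it was -0.37, and the call was lost without either LPS sample (adjusted p = 0.112 and 0.104). The change of C1qc likewise ran from -0.85 to -0.39 without these NC samples, and its call was lost without LPS replicate 1 (adjusted p = 0.111) or 2 (adjusted p = 0.0796). C1qb passed without NC replicate 1 (-0.71, adjusted p = 0.0044) and was at -0.22 without NC replicate 2. On top of C498, LPS lowered C1qa by 0.60 (adjusted p = 0.037) and C1qc by 0.55 (adjusted p = 0.0464), and C1qb was at -0.51 (adjusted p = 0.0619). Relative to the median gene these changes were -0.39, -0.34 and -0.30 (adjusted p = 0.326 for C1qa, 0.396 for C1qc and 0.482 for C1qb), so neither call held, and without C498 replicate 2 the adjusted p rose to 0.204 and 0.229.

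The 3 chains kept nearly constant proportions to each other, with a small shift from the A to the B chain. C1qa made up 33.1% and 32.8% of the summed C1q TPM in NC, 32.6% and 30.9% in LPS, 28.2% and 29.6% in C498 and 28.4% and 27.2% in C498+LPS. C1qb made up 43.8% and 44.3% in NC, 45.5% and 47.3% in LPS, 48.8% and 46.8% in C498 and 48.4% and 49.6% in C498+LPS. C1qc stayed at 21.8% to 23.6% in all 8 samples. The share of C1qa was lower in both C498 samples than in both NC samples, and lower in both C498+LPS samples than in both LPS samples. With 2 samples against 2, the exact two-sided permutation test gave p = 0.333 for each, which is the smallest it can give. Summed C1q was 1045 and 1450 TPM in NC, 816 and 872 in LPS, 737 and 790.0 in C498 and 531 and 512 in C498+LPS, so that the mean of the 3 chains together in C498+LPS (522 TPM) was below that of NC (1250 TPM). Over the 8 samples Pearson r of log2(TPM + 1) was 0.99 between each pair of chains, 0.94 to 0.98 between a chain and Cfp, and 0.07 to 0.21 between a chain and C5ar1. These samples share the 4 treatments, so r describes the pattern over groups as well as within them.

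Among the alternative pathway genes, Cfb was the most abundant of the 8 genes in every sample and the one whose LPS response stood furthest apart with C498. Cfb (ENSMUSG00000090231) was at 943 and 953 TPM in NC and 1358 and 1212 in LPS. With C498 it was at 740.0 and 742 TPM, and with C498+LPS at 659 and 604. The groups did not overlap, and the order was LPS, NC, C498 and C498+LPS. LPS raised Cfb by 0.44 ± 0.0873 on the log2 scale (SE, adjusted p = 0.00981), a ratio of means of 1.36, and by 0.60 relative to the median gene (adjusted p = 0.0171). The call was lost without LPS replicate 1 (adjusted p = 0.0761). C498 lowered Cfb by 0.36 in unstimulated cells (adjusted p = 0.0359), and by 0.48 under centring, which did not pass (adjusted p = 0.0513). The call held in 2 of 8 fits with a sample left out, with adjusted p up to 0.175 without C498 replicate 1. In LPS-stimulated cells C498 lowered Cfb by 1.02 ± 0.0873 (adjusted p = 0.000873), a 2.04-fold lower mean, which passed in all 8 fits with a sample left out and under centring (-1.10, adjusted p = 0.00304). That change was -0.94 without LPS replicate 1 and -0.96 without C498+LPS replicate 2, short of 2-fold. With C498 present, LPS did not raise Cfb, and the log2 change in C498+LPS vs C498 was -0.23 (adjusted p = 0.117). Relative to the median gene it was -0.0174 (adjusted p = 0.952).

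C3, the protein on which factor B acts, passed in no comparison in the fit of all samples without centring. C3 (ENSMUSG00000024164) was at 203 and 150.3 TPM in NC, 228 and 199 in LPS, 204 and 212 in C498 and 175 and 187 in C498+LPS. The 2 NC samples lay further apart than those of any other group, and overlapped the LPS and C498+LPS samples. The log2 change was 0.28 ± 0.147 (SE) in LPS vs NC (adjusted p = 0.194, 95% interval -0.06 to 0.63) and 0.25 in C498 vs NC (adjusted p = 0.288, -0.10 to 0.59). It was -0.23 in C498+LPS vs LPS (adjusted p = 0.334, -0.58 to 0.11) and -0.20 in C498+LPS vs C498 (adjusted p = 0.399, -0.55 to 0.15), and 0.0152 relative to the median gene in the last of these. The LPS change passed under centring (0.45, adjusted p = 0.0179) and without NC replicate 1 (0.50, adjusted p = 0.0211), and was 0.0671 without NC replicate 2 (adjusted p = 0.669). The C498 change was 0.46 without NC replicate 1 (adjusted p = 0.0307) and 0.0323 without NC replicate 2 (adjusted p = 0.876). The ratio of Cfb to C3, both in TPM, was 4.64 and 6.34 in NC, 5.96 and 6.09 in LPS, 3.62 and 3.51 in C498 and 3.76 and 3.23 in C498+LPS. The ratio was lower in all 4 samples with C498 than in all 4 without it.

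Properdin followed C1q more closely than it followed the other alternative pathway genes. Cfp (ENSMUSG00000001128) was at 213 and 253 TPM in NC, 188 and 204 in LPS, 141 and 155 in C498 and 113 and 107 in C498+LPS. The groups did not overlap. C498 lowered Cfp by 0.65 ± 0.111 (SE, adjusted p = 0.0108) without LPS and by 0.83 (adjusted p = 0.00355) with LPS, so that the means were 36.7% and 44.0% lower. The call with LPS passed in all 8 fits with a sample left out, and that without LPS in 6 of 8 (adjusted p = 0.0921 without C498 replicate 1 and 0.0568 without C498 replicate 2). LPS alone gave a log2 change of -0.25 (adjusted p = 0.141, -0.0763 relative to the median gene). LPS on top of C498 lowered it by 0.42 (adjusted p = 0.0435), a call lost under centring (-0.21, adjusted p = 0.527) and in 6 of 8 fits with a sample left out, with adjusted p up to 0.22 without C498 replicate 2.

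The 2 anaphylatoxin receptors moved in opposite directions with LPS and in the same direction with C498. C5ar1 (ENSMUSG00000049130), the receptor for C5a, was at 97.2 and 78.9 TPM in NC, 174 and 159 in LPS, 36.5 and 40.4 in C498 and 89.5 and 74.1 in C498+LPS. The C498+LPS samples overlapped those of NC, and every other pair of groups was separate. C498 lowered C5ar1 by 1.17 ± 0.143 on the log2 scale in unstimulated cells (SE, adjusted p = 0.003, 2.29-fold lower mean) and by 1.02 ± 0.143 in LPS-stimulated cells (adjusted p = 0.00427, 2.03-fold lower). LPS raised it by 0.91 without C498 (adjusted p = 0.00356, ratio of means 1.89) and by 1.07 with C498 (adjusted p = 0.00416, ratio 2.13). Relative to the median gene the LPS changes were 1.08 and 1.28, both past the threshold. C5ar1 passed in all 8 fits with a sample left out in the first 3 of these comparisons and in 7 of 8 in C498+LPS vs C498, where the adjusted p was 0.0515 without C498 replicate 1. Its change in C498+LPS vs LPS was -0.95 without LPS replicate 1 and -0.88 without C498+LPS replicate 2, just under 2-fold.

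C3ar1 (ENSMUSG00000040552), the receptor for C3a, was at 157 and 123 TPM in NC, 88.8 and 83.3 in LPS, 97.1 and 101 in C498 and 64.5 and 60.6 in C498+LPS. The groups did not overlap, in the order NC, C498, LPS and C498+LPS. LPS lowered C3ar1 by 0.69 ± 0.126 on the log2 scale (SE, adjusted p = 0.00705) and by 0.65 in cells with C498 (adjusted p = 0.016). Both LPS changes passed relative to the median gene, at -0.52 (adjusted p = 0.00548) and -0.44 (adjusted p = 0.0203). The call without C498 was lost without LPS replicate 2 (adjusted p = 0.0549), and the call with C498 was lost in 4 of 8 fits with a sample left out (adjusted p up to 0.115, without C498 replicate 2). C498 lowered it by 0.49 without LPS (adjusted p = 0.0428) and by 0.45 with LPS (adjusted p = 0.0499). Under centring both passed, at -0.61 (adjusted p = 0.00631) and -0.53 (adjusted p = 0.00824). With 1 sample left out these calls passed in 1 of 8 and 2 of 8 fits, with adjusted p up to 0.202 (without C498 replicate 1) and 0.22 (without LPS replicate 1 or C498+LPS replicate 2), and the first was -0.31 without NC replicate 1. Under quantile normalization the second did not pass (adjusted p = 0.0803).

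The balance between the receptors therefore shifted with each treatment. The ratio of C3ar1 to C5ar1 in TPM was 1.61 and 1.56 in NC, 0.512 and 0.525 in LPS, 2.66 and 2.5 in C498 and 0.72 and 0.818 in C498+LPS. No 2 groups overlapped, and replicates lay close together compared with the distances between groups. Both samples of a group had more C3ar1 than C5ar1 without LPS and more C5ar1 than C3ar1 with it. The exact two-sided permutation p was 0.333 for each of the 4 comparisons, the smallest it can give. Pearson r between the receptors over the 8 samples was -0.09.

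Whether the LPS response differed with C498 was tested by the interaction, the log2 change in C498+LPS vs C498 minus that in LPS vs NC. None of the 8 genes passed, where 0.492% of all tested genes did, and 1 of the 8 had an unadjusted p under 0.05, as did 11.1% of all tested genes. That gene was Cfb, with an interaction of -0.67 ± 0.123 (SE, 95% interval -0.96 to -0.38, adjusted p = 0.0915 by limma). On the TPM scale Cfb was higher in both LPS samples than in both NC samples, and lower in both C498+LPS samples than in both C498 samples. Relative to the median gene the interaction was -0.62 (adjusted p = 0.262). The value lay between -0.75 and -0.59 with any sample left out, with adjusted p of 0.083 to 0.386. For C3 the interaction was -0.48 (95% interval -0.97 to 0.01, adjusted p = 0.459), in the same direction as Cfb. For C1qa, C1qb, C1qc, Cfp and C3ar1 it was between -0.18 and 0.07, and its sign for the C1q chains and C3ar1 changed under some alternatives. For C5ar1 it was 0.15 ± 0.202 (SE) with a 95% interval of -0.32 to 0.62, so a difference of either sign within it remains possible. Larger differences could also be missed, as Cfb at -0.67 did not pass with a smaller SE.

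**Figure D3:**
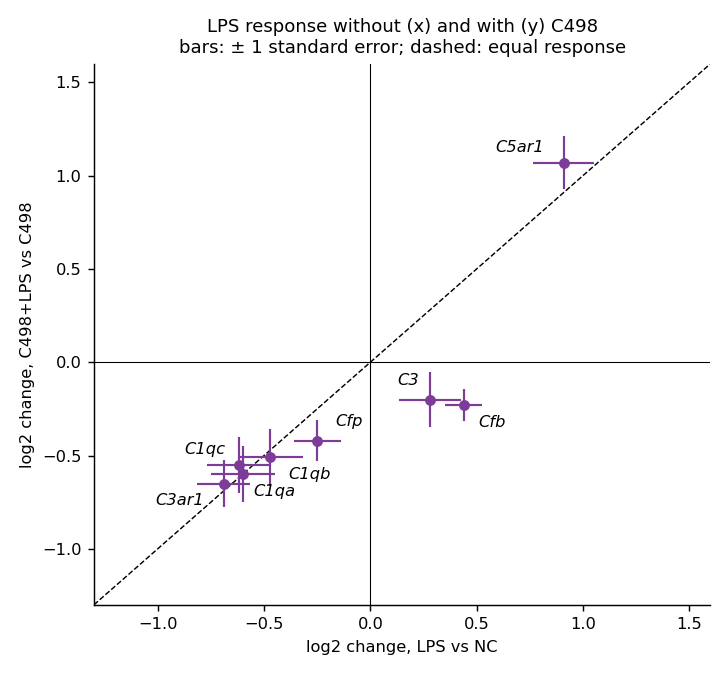
Log2 change with LPS in cells without C498 (x axis, LPS vs NC) and with C498 (y axis, C498+LPS vs C498) for each of the 8 genes, with bars of 1 standard error and the dashed line of equal response. C5ar1 (0.91 and 1.07), C3ar1 (-0.69 and -0.65) and the C1q chains lie near the line, and Cfb (0.44 and -0.23) and C3 (0.28 and -0.20) lie below it.

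The rest of the complement system was examined through a list of 50 further genes. Of these, 19 were above a mean of 1 TPM and were tested, 31 were below it, and 14 were listed at 0 in all samples. No gene of the alternative and terminal components on the list (Cfd, Hc and C6 to C9, 8 genes) reached a mean of 1 TPM. Among the early components the partners of C1q were lower than C1q, with C1ra at 22.3 ± 2.11 TPM in NC, C1s1 at 6.42 ± 0.643 (SD, n = 2), C4b at 16.7 ± 3.17 and C2 at 2.56 and 2.09 TPM. C4b has a near-identical copy, C4a, and reads may have been split between them.

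With C498 several other complement genes were higher, among them 3 regulators. In C498 vs NC 4 of the 19 rose and none fell (C1s1, Serping1, Cd55 and Clu), each at least 2-fold, where 9.29% of all tested genes rose, 6.19% fell and 7.0% were DEGs. In C498+LPS vs LPS 5 rose, those 4 and Colec12, and Itgb2 fell, where 9.08% of all tested genes rose, 7.7% fell and 7.57% were DEGs. Under centring these 4 and 5 genes rose as well. The falls were then Cd93 in C498 vs NC (-0.74, adjusted p = 0.0472), where 9.29% of all genes rose and 9.94% fell. In C498+LPS vs LPS they were Itgb2 (-0.74, adjusted p = 0.00585), Itgam (-0.70, adjusted p = 0.0372), C4b (-0.58, adjusted p = 0.033) and C1ra (-0.41, adjusted p = 0.0352), where 8.84% rose and 10.7% fell. The 4 DEGs of C498 vs NC became 1 without C498 replicate 1 or 2, where 2.83% and 3.2% of all genes were DEGs. The 4 of C498+LPS vs LPS became 2 without LPS replicate 1 or C498+LPS replicate 2, where 4.0% and 3.89% were, and 1 without LPS replicate 2, where 3.86% were. Clu, which encodes clusterin, an inhibitor of the terminal complex, was at 7.89 and 7.79 TPM in NC and 38.9 and 47.3 in C498, and at 8.13 and 9.95 in LPS and 47.0 and 63.1 in C498+LPS. The log2 change was 2.31 without LPS (adjusted p = 0.000501) and 2.47 with it (adjusted p = 0.000617), and it passed in all 8 fits with a sample left out. Serping1, the C1 inhibitor that blocks C1r and C1s, rose from 3.47 to 15.9 TPM without LPS (log2 change 1.93, adjusted p = 0.00792) and from 4.60 to 20.3 TPM with it (1.85, adjusted p = 0.0078). Cd55, which speeds the decay of convertases, went from 0.92 to 6.14 TPM (1.91, adjusted p = 0.0107) and from 1.09 to 4.87 TPM (1.47, adjusted p = 0.023). C1s1, a protease of the C1 complex, went from 6.42 to 21.3 TPM (1.56, adjusted p = 0.0152) and from 6.25 to 24.8 TPM (1.80, adjusted p = 0.0078). The calls of Serping1, Cd55 and C1s1 each held in 5 or 6 of 8 fits with a sample left out, with adjusted p up to 0.143 (Cd55 with LPS, without LPS replicate 2), and that of Colec12 (0.96, adjusted p = 0.0279) in 3 of 8 (up to 0.167, without C498+LPS replicate 2). The median log2 change of the 19 genes was 0.03 in C498 vs NC and 0.05 in C498+LPS vs LPS.

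These rises moved together with markers of fibroblasts. Of 8 fibroblast markers 6 were tested, and all 6 rose at least 2-fold in C498 vs NC (median log2 change 1.99), as did 5 of 6 in C498+LPS vs LPS (median 2.03). Dcn, a fibroblast proteoglycan, was at 21.7 and 21.6 TPM in NC and 84.3 and 93.3 in C498, while Lum and Dpt of the same list were under 1 TPM in all 8 samples. The summed level of 8 mesothelial markers went from 5.71 to 6.85 TPM in NC to 19.3 to 26.6 in C498. The summed level of 10 neutrophil markers went the other way, from 244 to 263 TPM in NC to 136 to 144 in C498. Only 5 of these 10 reached a mean of 1 TPM, and the sum was mostly S100a8, Mmp8 and Csf3r. Ngp was listed at 0 throughout, and Cxcr2 and Ltf were under 1 TPM in all samples. S100a9 and Ly6g were at 0 in NC and LPS, with a highest value of 2.62 TPM (Ly6g, C498 replicate 2). Of 7 dendritic cell markers, 3 were tested. Their list summed to 23.4 to 26.2 TPM in NC, 22.8 in both LPS samples, 41.0 to 44.2 in C498 and 55.9 to 123 in C498+LPS. The rise was mostly that of Ccr7, from a mean of 10.6 TPM in NC (1.57 and 2.06 on the log2 scale in the C498 comparisons). Zbtb46 changed by 0.93 and 1.21. Batf3 was above Ccr7 in NC and fell from 12.7 to 5.77 TPM in C498 vs NC (-1.04, adjusted p = 0.0231 by limma), and was at 0.22 in C498+LPS vs LPS. Xcr1, Clec9a and Cd209a were under 1 TPM in all samples. The part of these markers in the changes of the complement genes was not tested. Among the 10 macrophage markers, 1 rose and 3 fell in C498 vs NC (median -0.44), and 2 rose and 5 fell in C498+LPS vs LPS (median -0.49), beside medians of -0.61 and -0.72 for the 8 complement genes. Cd68 was at 2791 ± 173 TPM in NC and 2840 ± 52.6 in C498 (SD, n = 2), and Lyz2 at 15986 ± 3.49 and 11497 ± 116.

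**Figure D4:**
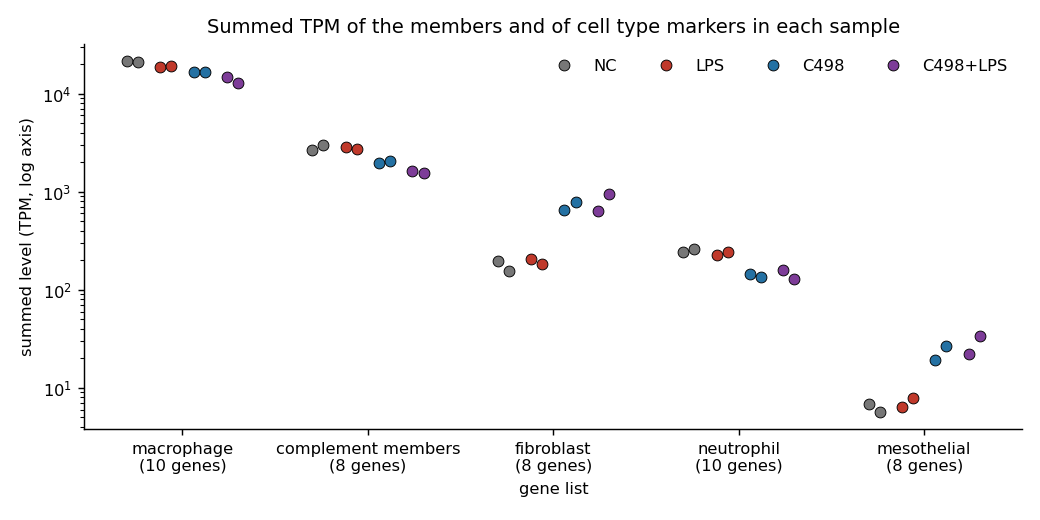
Summed TPM (y axis, log scale) of the 8 complement genes and of 4 lists of cell type markers in each of the 8 samples (points, coloured by group). The complement sum goes from 2659 to 3009 TPM in NC to 1544 to 1632 in C498+LPS, the fibroblast sum rises with C498, and the macrophage and neutrophil sums are lower with C498.

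LPS lowered 3 of the 19 further genes and raised none, both without C498 (Cd93, Lrp1 and C1qbp), where 19.8% of all tested genes fell, and with it (Cd93, Lrp1 and Itgb2), where 11.7% fell. These counts were near the share of all tested genes. Relative to the median gene Cd93 and Lrp1 fell in both comparisons, where 12% and 5.32% of all genes fell, and C1ra rose in LPS vs NC (0.36, adjusted p = 0.0432), where 14.6% rose. Cd93, a surface glycoprotein of phagocytes once described as a C1q receptor, was at 98.3 and 50.3 TPM in NC, 19.5 and 17.3 in LPS, 45.9 and 45.4 in C498 and 15.2 and 12.1 in C498+LPS. Its log2 change was -1.88 (adjusted p = 0.0032) without C498 and -1.68 (adjusted p = 0.0102) with it, and -1.71 and -1.46 relative to the median gene. Both LPS groups were thus separate from both groups without LPS, although the call with C498 held in 4 of 8 fits with a sample left out (adjusted p up to 0.0849, without C498 replicate 2). Lrp1, an endocytic receptor that binds C1q-coated material through calreticulin, changed by -0.90 (adjusted p = 0.00625) and -0.88 (adjusted p = 0.0133), or -0.73 and -0.66 relative to the median gene. C1qbp, a largely mitochondrial protein that binds C1q, changed by -0.63 in LPS vs NC (adjusted p = 0.00558), which did not pass relative to the median gene (adjusted p = 0.0969). Itgb2, the beta chain of complement receptor 3, changed by -0.67 in C498+LPS vs LPS (adjusted p = 0.0144) and -0.50 in C498+LPS vs C498 (adjusted p = 0.0429). Under centring the first was -0.74 and passed, and the second was -0.28 and did not (adjusted p = 0.16). Its alpha chain Itgam was at -0.62 and -0.74 in these comparisons (adjusted p = 0.128 and 0.0785), and under centring at -0.70, which passed (adjusted p = 0.0372), and -0.53 (adjusted p = 0.11). With a sample left out, the calls of Lrp1 held in 7 and 4 of 8 fits (adjusted p up to 0.113, without C498 replicate 2) and those of Itgb2 in 5 and 2 of 8 (up to 0.209, without C498+LPS replicate 2). No interaction passed among the 19 genes, with 2 at an unadjusted p under 0.05 against 11.1% of all tested genes. With LPS the median of the 19 was -0.06 without C498 and -0.29 with it.

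**Figure D5:**
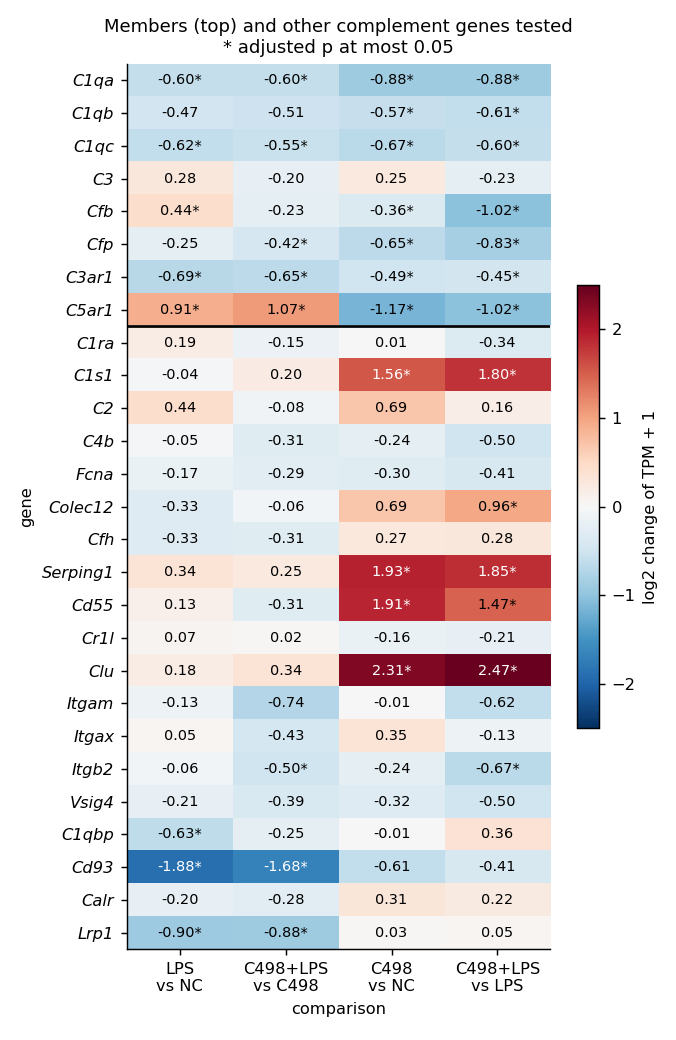
Log2 change of TPM + 1 (colour and number) for the 8 complement genes (above the black line) and the 19 further complement genes tested, in 4 comparisons, with an asterisk at an adjusted p of at most 0.05. Blue fills the C498 columns of the upper block except for C3 in C498 vs NC (0.25), and Clu (2.31 and 2.47), Serping1, Cd55 and C1s1 are red in them.

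The genes whose pattern over the 8 samples was most like that of each complement gene were named by Pearson r of log2(TPM + 1) among 8859 genes with a mean of at least 5 TPM. For the mean of the C1q chains they were Lypla2 (r = 0.997), Coa3 (0.993) and Fkbp8 (0.989). For Cfp they were Psmb5 (0.993), Capns1 (0.991) and Ostf1 (0.991), and for C3ar1 Cyb5r1 (0.996), Selenop (0.995) and Fkbp15 (0.994). The pattern of C5ar1 was most like that of Tlr1 (0.998), a receptor for bacterial lipoproteins, and of Oas2 (0.99) and Rtp4 (0.99), both interferon-stimulated genes. Tlr1 was at 21.9 and 17.4 TPM in NC, 56.1 and 49.6 in LPS, 5.72 and 7.04 in C498 and 21.3 and 15.0 in C498+LPS, the same order of groups as C5ar1. Cfb was most like Mvp (0.991), Pgs1 (0.984) and Akt2 (0.981). C3 had the loosest matches, Mtmr2 (0.952), Gopc (0.946) and Arid2 (0.942), and 1 gene was above r = 0.95 for C3 against 277 for C3ar1 and 111 for the C1q chains. With 4 groups of 2 samples sharing the same treatments, high values of r occur for many genes.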

How the data were processed

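Total RNA of 8 samples was extracted with TRIzol and treated with DNase I, and libraries were made with a TruSeq RNA kit and sequenced on an Illumina NovaSeq. Per the labels and the study's methods, the authors used fastp to filter reads, HISAT2 for alignment, StringTie for assembly and RSEM for quantification, and deposited TPM values per gene and sample. Tool versions, genome build, annotation and use of strand are not given in the sources used here. The table also holds the authors' group means and functional annotation, which were not used. Counts were not analysed here, and TPM keeps no depth.

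Groups came from the treatment labels. Values were transformed as log2(TPM + 1). The 12189 genes with a mean of at least 1 TPM were fitted with limma 3.58.1 in R 4.3.3, where every group had its own mean, all 8 samples shared the spread and variances were moderated along a trend, and p-values were adjusted by the Benjamini-Hochberg method over all tested genes. Fold changes are on the log2(TPM + 1) scale, which understates the change of low genes. The fit was tested on simulated data. Ratios were compared by exact permutation, which with 2 samples against 2 cannot go below p = 0.333. The genes, lists of further complement genes and of cell type markers, and the motifs were chosen with earlier results of these data known. All 8 genes are named, as are further complement genes that were called or are partners of them, and the 3 tested genes with the highest r to each pattern. Alternatives were another pseudocount and filter, centring, quantile normalization, only the groups compared, no variance trend, a replicate block, no fold threshold, and each sample left out. Calculations outside R used pandas 2.3.3 and scipy 1.17.1.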

Additional observations from a re-analysis of the deposited data

Results flagged for a closer look

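Cfb stood out because, on the TPM scale, it was higher in both LPS samples than in both NC samples and lower in both C498+LPS samples than in both C498 samples, with an interaction of -0.67 on the log2 scale (SE 0.123, 95% interval -0.96 to -0.38, adjusted p = 0.0915 by limma). Centred on the median gene, its change in C498+LPS vs C498 was -0.0174 (adjusted p = 0.952) and its interaction -0.62 (adjusted p = 0.262). C1ra, a protease of the C1 complex, had the same separation of samples with a weaker interaction (unadjusted p = 0.0822 by limma, against 0.000903 for Cfb). It was at 23.8 and 20.8 TPM in NC, 26.6 and 24.7 in LPS, 22.0 and 22.8 in C498 and 19.7 and 20.5 in C498+LPS. Its interaction was -0.34 (SE 0.171, 95% interval -0.75 to 0.06, limma adjusted p = 0.519), and centred on the median gene its change in C498+LPS vs C498 was 0.0631 (adjusted p = 0.752), that in LPS vs NC 0.36 (adjusted p = 0.0432) and that in C498+LPS vs LPS -0.41 (adjusted p = 0.0352). Neither difference passed the adjusted threshold.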

How the results depend on the processing

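Of 632 values of single genes under an alternative, 474 kept their direction and their side of the threshold, 126 kept the direction but no longer passed, 16 came to pass and 16 turned direction. Of the 16, 15 were interactions and the other was C3 in C498+LPS vs C498 under centring (0.0152). The interaction of C1qa (-0.0024) was 0.0434 under centring and 0.16 under quantile normalization, and -0.23 to 0.23 with a sample left out. That of C1qb (-0.0431) was 0.00269 and 0.00772 under the same scalings, and -0.29 to 0.2 with a sample left out. With a sample left out that of C1qc (0.0672) was -0.16 to 0.3 and that of C3ar1 (0.0329) -0.14 to 0.21. None of these interactions passed. The cause was not tested. Counts of DEGs among the 8 genes changed as follows. Without the fold threshold they were 5 in both LPS comparisons and 7 in both C498 comparisons. Centring gave 1 in LPS vs NC, and quantile normalization 1 in C498+LPS vs LPS. With a sample left out they were 0 to 1 in LPS vs NC (1 without NC replicate 1), 1 to 2 in C498 vs NC (2 without NC replicate 1), 0 to 2 in C498+LPS vs LPS (0 without LPS replicate 1 and without C498+LPS replicate 2), 0 to 1 in C498+LPS vs C498 (0 without C498 replicate 1 and without C498+LPS replicate 1) and 0 throughout for the interaction. Fitted on only the groups compared, C5ar1 alone passed in LPS vs NC and in C498 vs NC. Counts under centring are given with the comparisons. Same-numbered samples correlated in their deviations at r = 0.0397 to 0.168, so the numbers were not taken as pairs. With a replicate block the counts of DEGs stayed at 0, 1, 2, 1 and 0, and C1qb came to pass in both LPS comparisons, with no other call changed. Depth is unknown, and with 2 samples per group the spread rests on few degrees of freedom.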
